A study of Mus musculus with 39 samples.

Results

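The genes described here encode 8 small leucine-rich proteoglycans, decorin (Dcn), biglycan (Bgn), lumican (Lum), fibromodulin (Fmod), osteoglycin (Ogn), prolargin (Prelp), asporin (Aspn) and podocan (Podn). They were taken by symbol, as the rows of the count table whose Ensembl IDs carry these names, from a list chosen with earlier results of these data known. All 8 were found among the 38293 genes of the table. Each passed the filter on low counts in every comparison.

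RNA came from the left ventricle of C57BL6/J mice in 39 libraries. One set carried R14del, a codon deletion in Pln, the gene for phospholamban, which restrains calcium uptake into the sarcoplasmic reticulum of heart muscle. It held wild type (wt) and homozygous (Pln R14del/R14del) hearts at 3 weeks and at 5 weeks of age, 4 of each, and at 8 weeks 3 wild type, 4 heterozygous (Pln wt/R14del) and 4 homozygous hearts. These mice had no surgery. The other set held wild type males operated on at 12 weeks of age. Their left anterior descending coronary artery was closed for a time and reopened (ischemia-reperfusion, I/R, 4 hearts taken 3 days later at a labelled age of 12 weeks) or closed for good (myocardial infarction, MI, 4 hearts taken 8 weeks later at 20 weeks). Sham-operated hearts, 2 labelled 12 weeks and 2 labelled 20 weeks, were pooled as 1 control group of 4. After surgery the tissue was taken remote from the infarct, so the values are meant to describe surviving ventricle and not scar. Whether the pieces were free of scar was not tested. The labels name separate samples without numbering animals, so the p-values cover sample-to-sample spread, which may be partly technical.

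Small leucine-rich proteoglycans are secreted proteins with a curved core of leucine-rich repeats that binds collagen fibrils and sets their spacing and thickness. Several carry chondroitin, dermatan or keratan sulfate chains, and decorin, biglycan and asporin also bind transforming growth factor beta. In the heart they are made mainly by fibroblasts and related stromal cells, and they are best known there from scar and interstitial fibrosis. In whole tissue, more transcript per cell and more cells that make it cannot be told apart.

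The genes lie in small clusters, and 6 of the 8 had an upstream window in the RefSeq table (GRCm38.p6); Dcn and Lum did not. In GENCODE vM21 (GRCm38) Dcn (10:97479609-97518143) and Lum (10:97565128-97572703) are neighbours on the plus strand of chromosome 10, 47.0 kb apart. Prelp (1:133910304-133921414, minus strand) and Fmod (1:134037254-134048277, plus strand) are 115.8 kb apart on chromosome 1. Aspn (13:49544443-49567565) and Ogn (13:49608046-49624501) lie on the plus strand of chromosome 13, with Ecm2 before Aspn and Omd between them. Bgn (X:73483602-73495933, plus strand) and Podn (4:108014791-108096445, minus strand) stand apart from the rest. Cenpp on the opposite strand overlaps Aspn and Ogn, and shares exon bases with Aspn. The antisense gene Gm15851 shares exon bases with Prelp. Whether the counting used strand is not stated, so reads of Aspn and Prelp cannot be told apart from those of these partners.

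Windows of 250 bases upstream of the RefSeq start are shown for the members on which the results turn. These are Bgn, the member with the largest response after I/R, the pair Fmod and Prelp, and the pair Aspn and Ogn. Fmod and Prelp shared their most similar gene over all libraries, and of Aspn and Ogn only Aspn passed at 5 weeks. The windows are written 5′ to 3′ on the gene's strand. Capitals mark matches on either strand to TATAAA or GGGCGG, or to CATTCC, the core of the site bound by TEAD factors; the AP-1 letters TGANTCA were also searched.

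Bgn (X:73483351-73483600): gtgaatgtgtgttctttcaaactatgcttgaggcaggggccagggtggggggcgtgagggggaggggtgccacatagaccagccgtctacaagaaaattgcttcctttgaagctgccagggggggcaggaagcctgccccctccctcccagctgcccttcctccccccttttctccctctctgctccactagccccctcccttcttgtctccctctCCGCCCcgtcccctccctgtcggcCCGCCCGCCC
Fmod (1:134037004-134037253): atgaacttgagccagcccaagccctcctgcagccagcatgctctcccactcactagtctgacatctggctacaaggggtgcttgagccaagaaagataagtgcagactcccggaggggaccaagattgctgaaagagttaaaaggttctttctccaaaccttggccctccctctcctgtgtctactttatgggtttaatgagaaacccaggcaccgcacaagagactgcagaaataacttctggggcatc
Prelp (1:133921402-133921651): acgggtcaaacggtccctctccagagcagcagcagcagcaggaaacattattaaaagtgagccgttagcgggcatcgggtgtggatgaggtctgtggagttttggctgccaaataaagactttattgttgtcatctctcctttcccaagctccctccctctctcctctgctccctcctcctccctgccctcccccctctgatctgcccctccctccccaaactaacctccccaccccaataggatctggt
Aspn (13:49544193-49544442): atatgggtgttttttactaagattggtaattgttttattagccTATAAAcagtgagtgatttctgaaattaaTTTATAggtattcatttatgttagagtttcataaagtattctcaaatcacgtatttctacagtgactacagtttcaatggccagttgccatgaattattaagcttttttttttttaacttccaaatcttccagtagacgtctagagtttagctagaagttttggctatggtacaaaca
Ogn (13:49607765-49608014): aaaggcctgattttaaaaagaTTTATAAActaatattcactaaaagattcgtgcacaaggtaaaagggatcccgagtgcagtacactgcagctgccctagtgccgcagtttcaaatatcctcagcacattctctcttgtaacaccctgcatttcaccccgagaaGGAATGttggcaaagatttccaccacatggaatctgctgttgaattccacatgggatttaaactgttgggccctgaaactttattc

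The windows differed in composition, with a GC content of 64.4% for Bgn, 55.6% for Prelp, 51.2% for Fmod, 42.0% for Ogn and 30.0% for Aspn, against a median of 52.4% over all windows of that length. The Bgn window held 3 matches to GGGCGG, at 34, 10 and 6 bases before the start, the last 2 overlapping; 32.7% of 32851 windows held at least 1. The Aspn window held 2 separate matches to TATAAA and the Ogn window 2 overlapping ones, a match found in 12.4% of windows. Ogn also had 1 match to CATTCC (12.6% of windows). None of these letters were found in the Fmod and Prelp windows, and TGANTCA (6.7% of windows) was in none of the 5. A match is a run of letters and not a measured binding site.

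Libraries held 9.4 M to 19.32 M counts, with the 5-week set the shallowest at 9.78 M to 11.98 M, and none of 57 replicate pairs were identical. Levels are given as CPM, counts scaled to a common library total with TMM factors (a correction for unequal RNA composition) over all libraries. Cardiomyocyte markers were abundant in all libraries, with a summed level of 36450 to 113300 CPM. Atrial markers varied between libraries of 1 group, from 38.1 to 873 CPM in MI hearts and from 29.6 to 335 CPM in heterozygous hearts, and their part in the results was not tested. Pln counts per gene do not resolve a codon deletion and therefore do not check the genotype labels. Among homozygous 8-week hearts replicates 1 and 4 correlated least with their group (mean Spearman 0.977), and each member's call at that age is given below with each library left out.

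Decorin was the most abundant member per length in wild type hearts without surgery and in sham hearts. In wild type hearts at 8 weeks, levels per kb of merged exon stood at 80.5 CPM per kb for Dcn, 56.0 for Bgn, 36.5 for Ogn, 25.1 for Prelp, 24.1 for Lum, 9.45 for Aspn, 5.75 for Podn and 2.02 for Fmod. Only Prelp and Lum, as neighbours in this order, overlapped between libraries. In homozygous hearts at 8 weeks the order was Bgn (427 CPM per kb), Dcn (393), Lum (116), Prelp (90.6), Ogn (67.2), Aspn (37.7), Fmod (30.4) and Podn (12.6), with overlap between Bgn and Dcn, Lum and Prelp, and Aspn and Fmod. Fibromodulin, the lowest member in all control groups, thus stood above podocan there. The merged exon length counts every annotated exon, so a gene with long, little used exons appears lower than it is.

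**Figure D1:**
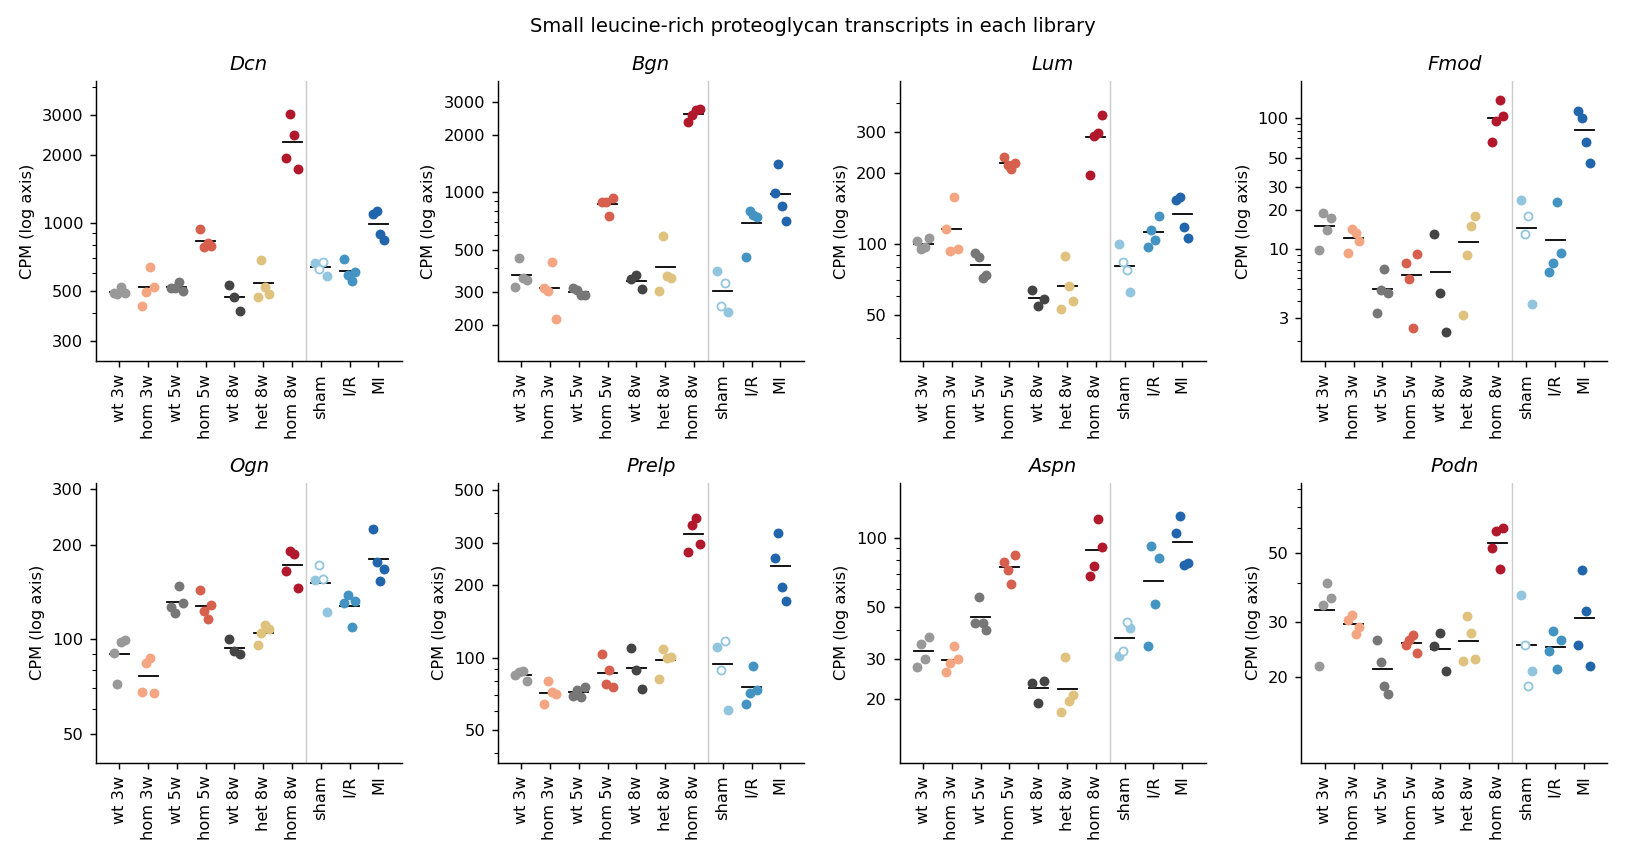
Level of each of the 8 members in each library, in CPM on a log axis, by group (wt wild type, hom homozygous, het heterozygous, w weeks of age; open sham circles are the hearts of 20 weeks); lines mark group means. Homozygous 8-week hearts hold the highest mean for 6 members, MI hearts for Ogn and Aspn, and heterozygous libraries overlap with wild type ones of the same age for every member.

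At 3 weeks no member passed the test between homozygous and wild type hearts, whose threshold throughout was a Benjamini-Hochberg adjusted p of 0.05. Log2 differences ran from -0.32 ± 0.20 (SE) for Fmod to 0.20 ± 0.15 for Lum, and the libraries of both groups overlapped for all 8 members, where 5.83% of genes had groups that did not overlap. The quasi-likelihood test of edgeR called 0 of 8 members and 0.0% of 13427 genes, while 1515 genes and 1 member were under 0.05 before adjustment; DESeq2 called 118 genes and no member. That member was Prelp (-0.26 ± 0.08, edgeR adjusted p = 0.326).

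At 5 weeks 5 of the 8 members rose in homozygous hearts. They were the abundant collagen binders Bgn, Lum and Dcn, together with Aspn and, by a small amount, Prelp. Genes called higher made up 22.3% of the 13323 tested (43.7% in either direction), 20.6% were higher with no overlap, and the median log2 change was 0.52 for the members and 0.0 for all genes.

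Biglycan, which also acts as a danger signal through Toll-like receptors when released from the matrix, stood at 312, 307, 289 and 288 CPM in wild type and at 896, 888, 753 and 934 CPM in homozygous hearts at 5 weeks. Every homozygous library was thus above every wild type one, and the rise was 2.91-fold (log2 1.54 ± 0.07, edgeR adjusted p = 1.32e-11). Lumican, a keratan sulfate proteoglycan that limits fibril thickness, stood at 91.5, 88.3, 71.9 and 73.9 CPM in wild type and 235, 217, 209 and 222 CPM in homozygous hearts. The groups did not overlap (log2 1.44 ± 0.08, adjusted p = 7.72e-11). Decorin, which coats fibrils and holds growth factors, stood at 514, 514, 550 and 500 CPM in wild type and at 938, 784, 817 and 789 CPM in homozygous hearts. Its rise was smaller than that of biglycan, at 0.68 ± 0.07 on the log2 scale (adjusted p = 3.14e-07), again with no overlap.

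Asporin, which competes with decorin for collagen, stood at 42.8, 55.3, 42.7 and 40.0 CPM in wild type and 78.3, 72.2, 63.2 and 84.2 CPM in homozygous hearts at 5 weeks. The groups were apart by 0.72 ± 0.10 (adjusted p = 9.35e-06). Prolargin, which links basement membranes to fibrils, stood at 69.6, 73.6, 68.8 and 75.3 CPM in wild type and 104, 77.5, 88.6 and 75.4 CPM in homozygous hearts. The lowest homozygous library was barely above the highest wild type one, and the call (0.27 ± 0.09, adjusted p = 0.019) ended without wild type replicate 1 (adjusted p = 0.0507) or 3 (0.0546) or homozygous replicate 1 (0.074), and in a fit of all 39 libraries (0.225).

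The other members did not pass at 5 weeks. Fmod was low in both groups (3.27 to 7.13 CPM in wild type, 2.51 to 9.13 in homozygous hearts; 0.37 ± 0.29, adjusted p = 0.337) and passed without homozygous replicate 3 (0.62, adjusted p = 0.0351). Ogn ran from 121 to 147 CPM in wild type and from 116 to 143 CPM in homozygous hearts, a difference of -0.04 ± 0.08 (adjusted p = 0.711). The sign of that value turned (0.17) with scaling to the plain library size, which shifts the median of all genes by 0.21 at this age. Podn missed the threshold (0.27 ± 0.11, adjusted p = 0.0541), passed without wild type replicate 1 (0.39, adjusted p = 0.00657) or homozygous replicate 4 (0.31, adjusted p = 0.0472), and passed under 2 other processing choices and library size scaling (0.48).

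**Figure D2:**
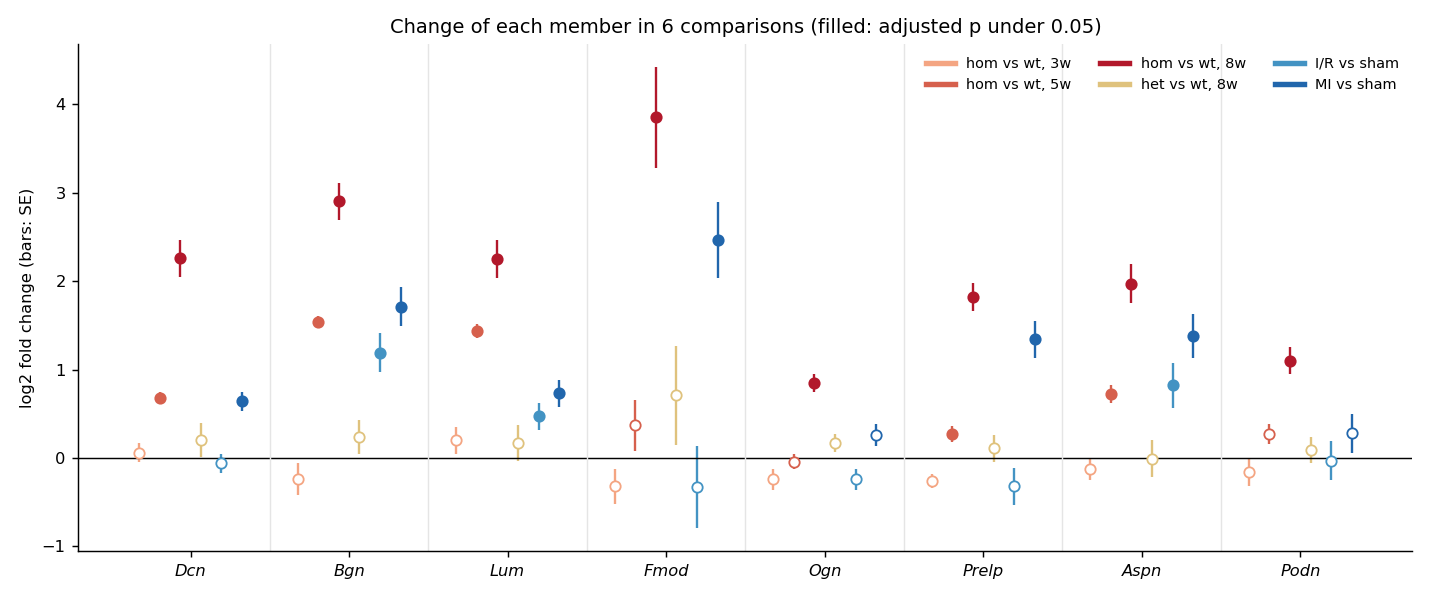
Log2 fold change of each member (points, with SE bars) in 6 comparisons; filled points passed an edgeR adjusted p of 0.05. The largest value is Fmod in homozygous hearts at 8 weeks (3.85), and Bgn is the member that passed in both surgery comparisons with over 1 log2 unit.

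At 8 weeks all 8 members stood higher in homozygous than in wild type hearts, with no overlap of libraries for any of them. Genes called higher made up 30.8% of the 14314 tested (59.8% in either direction), and non-overlapping higher genes 30.6%. The median log2 change was 2.11 over the members against 0.02 over all genes. The 8 calls remained when each library was left out in turn.

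The largest change was in fibromodulin, a keratan sulfate proteoglycan that steers collagen crosslinking. It stood at 13.1, 4.61 and 2.33 CPM in wild type and at 65.7, 94.4, 137 and 104 CPM in homozygous hearts (log2 3.85 ± 0.57, adjusted p = 9.02e-05). All homozygous libraries were above the wild type ones, which were themselves spread widely, and the fitted value was 4.81 without wild type replicate 1 and 3.44 without replicate 3.

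Biglycan rose 7.48-fold, from 349, 367 and 310 CPM to 2362, 2565, 2718 and 2763 CPM (2.90 ± 0.21, adjusted p = 6.92e-07). Decorin rose 4.78-fold, from 533, 470 and 407 CPM to 1948, 3039, 2455 and 1732 CPM (2.26 ± 0.21, adjusted p = 2.54e-06). Lumican rose 4.75-fold, from 63.6, 54.6 and 58.6 CPM to 197, 290, 298 and 354 CPM (2.25 ± 0.21, adjusted p = 2.65e-06). In homozygous hearts biglycan was the steadiest of the 3 between libraries (SD 181 on a mean of 2602 CPM), whereas Dcn was lowest and Lum highest in replicate 4.

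Asporin rose from 23.5, 19.2 and 24.0 CPM to 68.2, 75.2, 121 and 91.0 CPM (1.97 ± 0.22, adjusted p = 9.63e-06), and prolargin from 109, 89.2 and 73.9 CPM to 275, 356, 381 and 298 CPM (1.82 ± 0.16, adjusted p = 1.58e-06). Podocan, which restrains smooth muscle growth, rose from 25.0, 27.7 and 20.9 CPM to 51.6, 58.8, 44.2 and 59.8 CPM (1.10 ± 0.15, adjusted p = 4.07e-05). Osteoglycin, a keratan sulfate protein known from bone and cornea, had the smallest rise, from 99.9, 91.5 and 89.7 CPM to 165, 191, 187 and 146 CPM (0.85 ± 0.10, adjusted p = 1.5e-05). Even these smallest changes left a gap between the groups.

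Between heterozygous and wild type hearts at 8 weeks no member passed the test. The differences ran from -0.01 ± 0.21 for Aspn to 0.71 ± 0.56 for Fmod; edgeR and DESeq2 called 0 of 8 members and 0.0% of 14314 genes, with no member and 326 genes under an unadjusted p of 0.05. Heterozygous replicate 2 held the highest Dcn (686 CPM against 472 to 521 in the other 3), Bgn (593 against 302 to 363) and Lum (88.7 against 52.8 to 66.4) of its group. Without it the difference was -0.01 for Bgn and 0.0 for Lum. Against heterozygous hearts the homozygous ones were higher in all 8 members, from 0.69 ± 0.09 for Ogn to 3.13 ± 0.48 for Fmod, where 32.0% of genes were called higher; this comparison shares its homozygous hearts with the one above.

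The difference between ages was itself tested in 1 fit of all libraries, so its values can depart a little from the subtraction of the separate fits. From 3 to 5 weeks the homozygous effect grew for Bgn (1.77 ± 0.28, adjusted p = 2.74e-05), Lum (1.23 ± 0.23, 0.000272), Aspn (0.84 ± 0.30, 0.0427) and Dcn (0.61 ± 0.19, 0.0196), 4 of 8 members where 11.1% of genes were called higher. The Aspn call ended without any of 12 single libraries of the 16 (adjusted p 0.0511 to 0.0914), and that of Dcn without homozygous replicate 1 of 3 weeks (0.062) or of 5 weeks (0.0522). From 5 to 8 weeks the effect grew for all 8, where 14.4% of genes were called higher: Fmod 3.51 ± 0.75, Dcn 1.61 ± 0.20, Prelp 1.58 ± 0.25, Bgn 1.39 ± 0.29, Aspn 1.28 ± 0.31, Ogn 0.92 ± 0.17, Podn 0.85 ± 0.27 and Lum 0.83 ± 0.24. Podn alone lost its call when 1 library was left out (adjusted p = 0.0519 without wild type replicate 1 of 5 weeks, 0.0579 without wild type replicate 3 of 8 weeks). Biglycan and lumican thus changed at both steps, and fibromodulin, prolargin, osteoglycin and podocan passed at the later step only; whether the steps themselves differ was not tested.

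After I/R, 3 days on, biglycan was the member that moved most. It stood at 456, 801, 765 and 739 CPM, against 386 and 233 CPM in shams of 12 weeks and 253 and 335 CPM in shams of 20 weeks (1.19 ± 0.22, edgeR adjusted p = 0.00082). All 4 I/R hearts were above all shams, where 15.8% of genes were higher with no overlap, and replicate 1 was the lowest of the 4. The call remained in every alternative fit, from 1.09 to 1.42. Aspn (34.1, 92.2, 51.5 and 81.9 CPM against 30.6, 40.5, 32.3 and 43.2 in shams; 0.82 ± 0.25, adjusted p = 0.0217) and Lum (97.7, 115, 104 and 132 CPM against 100, 62.3, 83.5 and 77.8; 0.47 ± 0.15, adjusted p = 0.0287) also passed, but with overlapping groups.

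Both calls were fragile. Aspn did not pass without I/R replicate 2 (adjusted p = 0.0818) or 4 (0.0704), the first sham of 12 weeks (0.0562) or of 20 weeks (0.0623), or with age-matched shams only (0.87, 0.102). Lum did not pass without I/R replicate 2 (0.0603) or 4 (0.0926), without the second sham of 12 weeks (0.0823) or either sham of 20 weeks (0.0555 and 0.0691), or with age-matched shams (0.46, 0.149). The 3 of 8 members called higher compare with 16.9% of the 13611 genes tested. Dcn, Fmod, Ogn, Prelp and Podn did not pass, with values from -0.33 ± 0.46 (Fmod) to -0.03 ± 0.22 (Podn); with library size scaling, which moves the median of all genes by 0.21 in this comparison, Dcn (0.17) and Podn (0.20) turned positive. Decorin, at 554 to 693 CPM after I/R and 581 to 672 CPM in shams, differed by -0.06 ± 0.11.

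After MI, 8 weeks on, 6 of the 8 members stood higher than in the same shams, where 6.62% of genes were called higher (11.4% in either direction) and 8.85% were higher with no overlap. Fibromodulin stood at 114, 100, 66.1 and 45.9 CPM against 23.8, 3.83, 13.1 and 17.9 CPM in shams of 12 and 20 weeks (2.46 ± 0.43, adjusted p = 0.00273). Biglycan stood at 989, 1406, 845 and 705 CPM (1.71 ± 0.22, adjusted p = 0.000414) and asporin at 105, 124, 76.1 and 78.1 CPM (1.38 ± 0.25, adjusted p = 0.00349). Prolargin stood at 261, 330, 196 and 172 CPM against 110, 60.9, 88.7 and 117 CPM (1.34 ± 0.21, adjusted p = 0.00121). None of these overlapped with the shams, and replicates 1 and 2 were the highest MI hearts for all 4 genes.

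Lumican (155, 159, 118 and 106 CPM; 0.73 ± 0.15, adjusted p = 0.00739) and decorin (1100, 1134, 893 and 838 CPM against 669, 581, 627 and 672 CPM; 0.64 ± 0.11, adjusted p = 0.00205) rose less. Ogn (0.26 ± 0.12, adjusted p = 0.2) and Podn (0.28 ± 0.22, adjusted p = 0.437) did not pass. The 6 calls remained with each library left out and with shams of 20 weeks only.

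The injuries share their shams, so their values are set side by side and the hearts themselves were compared. MI exceeded I/R hearts for Fmod (2.79 ± 0.43, adjusted p = 0.000469), Prelp (1.67 ± 0.21, 0.000109), Dcn (0.70 ± 0.11, 0.000422) and Ogn (0.50 ± 0.12, 0.0104), 4 of 8 members where 8.84% of genes were called higher, and these 4 did not overlap, where 11.4% of genes were higher with no overlap. Bgn (0.51 ± 0.22, adjusted p = 0.108), Aspn (0.56 ± 0.24, 0.122), Lum (0.26 ± 0.15, 0.247) and Podn (0.31 ± 0.21, 0.343) did not pass; Aspn passed without I/R replicate 2 (0.77, adjusted p = 0.0431). These hearts differ in time after surgery, in age and in the kind of closure at once, which cannot be told apart.

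Homozygous 8-week and MI effects were compared as an interaction, although the hearts differ in age and each effect has its own controls. The homozygous effect was larger for Dcn (1.65 ± 0.20, adjusted p = 1.03e-07), Lum (1.54 ± 0.25, 7.86e-06), Bgn (1.22 ± 0.29, 0.0012), Podn (0.84 ± 0.27, 0.0135) and Ogn (0.62 ± 0.17, 0.00414), 5 of 8 members where 19.6% of genes were called higher. Fmod (1.41 ± 0.65, 0.0841), Aspn (0.62 ± 0.31, 0.12) and Prelp (0.51 ± 0.24, 0.0954) did not pass. Without wild type replicate 1 of 8 weeks both Fmod (2.37, 0.0101) and Prelp (0.66, 0.0426) passed, as they did without the second sham of 12 weeks (1.69, 0.0326 and 0.64, 0.0248); Prelp passed without MI replicate 2 too (0.70, 0.0153). Podn lost its call without wild type replicate 3 of 8 weeks (0.0575) or the first sham of 12 weeks (0.0806). Against the I/R effect the homozygous one was larger for all 8, from 1.12 ± 0.17 for Ogn to 4.21 ± 0.68 for Fmod, where 16.6% of genes were called higher.

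The level of the members beside that of the fibrillar collagens they bind differed between groups. Transcripts of the 8 members together summed to 1175 ± 30.01 CPM (SD, n = 4) in wild type and 2241 ± 146 CPM in homozygous hearts at 5 weeks, to 1109 ± 116 (n = 3) and 5922 ± 707 CPM at 8 weeks, and to 1341 ± 171 CPM in shams, 1718 ± 150 CPM after I/R and 2740 ± 602 CPM after MI. Relative to the sum of Col1a1, Col1a2 and Col3a1, the chief fibrillar collagen genes, this was a ratio of 0.902 ± 0.071 in wild type and 0.432 ± 0.055 in homozygous hearts at 5 weeks, and 0.5256 ± 0.0434 and 0.509 ± 0.057 at 3 weeks. The ratio was 0.381 ± 0.089 after I/R and 1.86 ± 0.10 after MI (1.777 to 2.004). Shams differed by age, at 1.399 and 1.161 in those of 12 weeks and 2.74 and 2.43 in those of 20 weeks, so I/R hearts lay below every sham and MI hearts below both shams of their own age. At 8 weeks it was 1.18 ± 0.11 in wild type and 1.60 ± 0.66 in homozygous hearts, where replicate 4 stood apart with a member sum of 5546 CPM beside 7798 CPM of the 3 collagens, against 2772 to 3985 CPM in replicates 1 to 3. Dcn and Bgn made up most of the member sum in every group, at 44.24% and 25.45% in wild type 5-week and 38.36% and 44.29% in homozygous 8-week hearts. Fmod held 2.912% of it at most, in MI hearts. The sum and its ratio therefore mainly follow Dcn and Bgn. These sums were not tested.

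**Figure D3:**
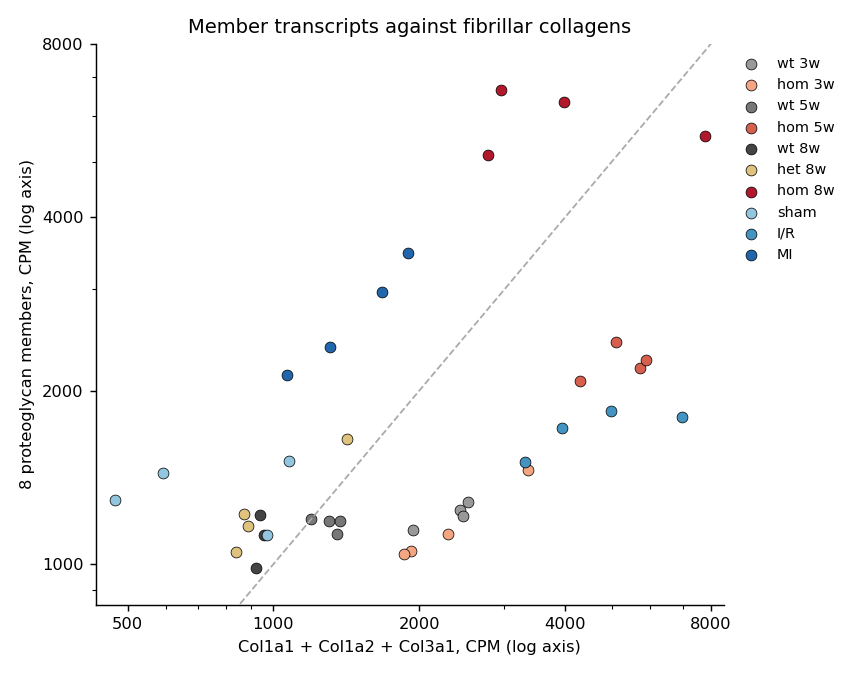
Sum of the 8 members, of which Dcn and Bgn made up most, against the sum of Col1a1, Col1a2 and Col3a1 in each library. Both are in CPM on log axes, and the dashed line marks equal sums. All 3-week, 5-week and I/R hearts lie below the line, farthest after I/R (mean ratio 0.381) and in homozygous 5-week hearts (0.432), MI and sham hearts lie above it, and 1 homozygous 8-week heart lies below it, unlike the other 3.

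The collagen genes themselves, of which 12 to 14 of 14 were tested in each comparison, are given by count. Over all genes 22.3% were called higher at 5 weeks, 30.8% at 8 weeks, 16.9% after I/R and 6.62% after MI. At 5 weeks 12 of 12 rose in homozygous hearts (median 1.38), led by Col3a1 (2.05 ± 0.09, from 732 to 3035 CPM), and at 8 weeks 11 of 13 rose (median 2.11, as for the members). From 5 to 8 weeks the effect on the collagens grew for 2 (Col5a2 and Col16a1) and shrank for 1 (Col6a3) of 14. The 2 that grew were no larger a share than the 14.4% of all genes called higher, and 2066 of 14931 genes were called lower. After I/R 12 of 13 rose (median 2.15, Col1a1 3.09 ± 0.33, from 155 to 1317 CPM), and after MI 9 of 13 (median 1.01). Between MI and I/R hearts 0 of 13 were higher and 6 were lower in MI by edgeR, among them Col1a1 (-2.05 ± 0.32, adjusted p = 0.000458), while 4 proteoglycan members were higher. Of the 13611 genes tested there, 1203 were called higher (8.84%) and 1527 lower in MI.

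Of the most abundant pair, biglycan stood higher beside decorin in homozygous hearts of 5 and 8 weeks and after both injuries than in their controls. The ratio of Bgn to Dcn per kb was 0.551 ± 0.035 in wild type and 1.004 ± 0.124 in homozygous hearts at 5 weeks, and 0.700 ± 0.065 and 1.14 ± 0.30 at 8 weeks. It was 0.450 ± 0.081 in shams, 1.11 ± 0.32 after I/R and 0.940 ± 0.170 after MI. At 3 weeks it was 0.713 ± 0.123 in wild type and 0.581 ± 0.133 in homozygous hearts. Libraries of sham and I/R hearts did not overlap in this ratio (0.384 to 0.553 and 0.631 to 1.32), nor did those of sham and MI hearts (0.805 to 1.19 after MI). These ratios are descriptions without a test.

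The neighbours on chromosome 13 did not all pass in the same comparisons. Ecm2, Aspn, Omd and Ogn follow each other on the plus strand with gaps of 11.7, 14.9 and 15.2 kb. At 5 weeks Aspn rose in homozygous hearts, while Ecm2, a related leucine-rich matrix protein, stood at 37.4 ± 2.4 CPM in wild type and 35.5 ± 4.4 CPM in homozygous hearts (SD, n = 4) and did not pass. At 8 weeks all 4 were higher, Omd (osteomodulin) by 2.56 ± 0.37 (adjusted p = 6.71e-05), from 0.964 to 5.81 CPM, and Ecm2 by 0.81 ± 0.10 (adjusted p = 2.62e-05), close to Ogn. After MI, Ecm2 (0.54 ± 0.12, adjusted p = 0.00881) and Omd (1.14 ± 0.30, adjusted p = 0.0265) passed beside Aspn. After I/R, Aspn passed, and Ecm2 (34.1 ± 3.7 CPM against 42.4 ± 2.7 in shams) and Omd (1.09 ± 0.31 against 1.65 ± 0.22) did not (edgeR adjusted p = 0.0513 and 0.223), with levels below those of every sham.

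**Figure D4:**
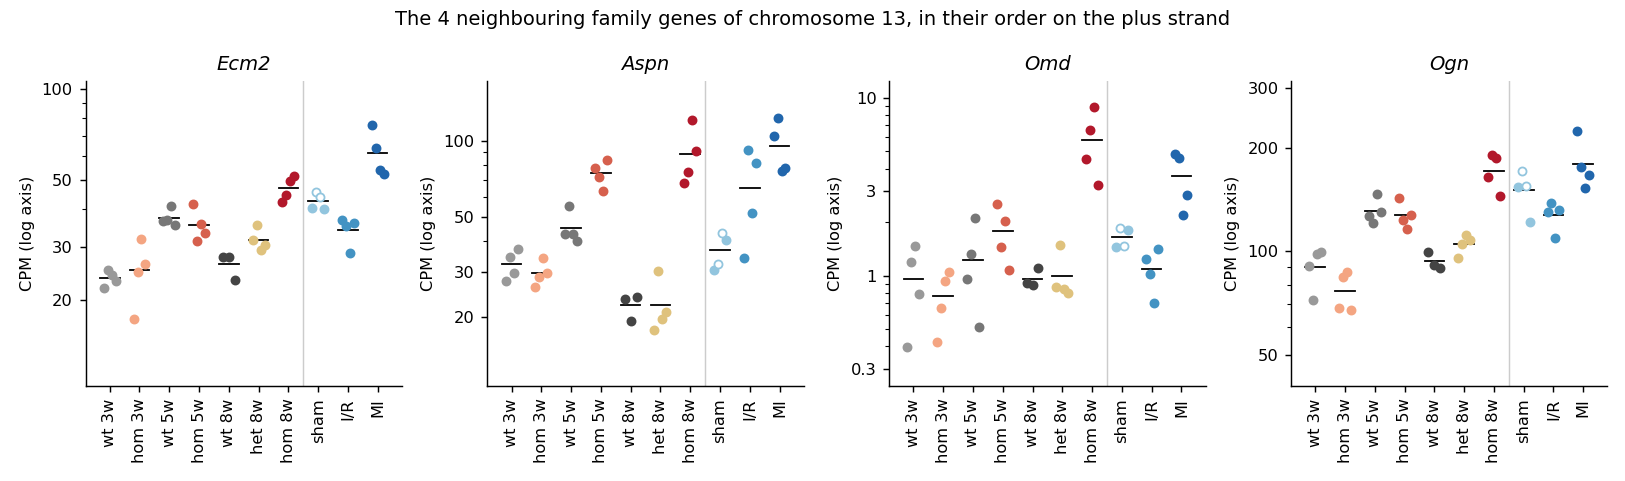
Level of the 4 neighbouring genes of chromosome 13 in each library, in CPM on a log axis, by group, with lines at group means; open sham circles are hearts of 20 weeks. Aspn lies above its controls at 5 weeks, where the other 3 overlap with theirs, and overlaps with the shams after I/R; all 4 lie above wild type in homozygous 8-week hearts.

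On chromosome 10, Kera and Epyc, which follow Lum, stayed below 3 CPM in every library; Epyc passed at 8 weeks (from 0.162 to 1.43 CPM). Of the 10 other family genes, 7 were tested at 8 weeks and 5 were higher in homozygous hearts, where 30.8% of all genes were called higher. Tsku (tsukushi), which binds several growth factors, rose in homozygous hearts at 5 weeks (1.09 ± 0.16, adjusted p = 2.41e-05) and after I/R (1.83 ± 0.27, adjusted p = 0.000134, from 3.39 to 12.2 CPM), as well as at 8 weeks (1.36 ± 0.35, adjusted p = 0.00509) and after MI (1.17 ± 0.28, adjusted p = 0.0141). At 8 weeks homozygous replicate 4 stood at 20.07 CPM and the other replicates at 6.7 to 8.577 CPM. After MI the groups overlapped, with MI replicate 4 at 4.136 CPM and the highest sham at 5.119 CPM.

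Fibromodulin and prolargin shared their most similar gene. Over all 39 libraries the gene most like each of them was Comp, a cartilage and tendon matrix protein also made by activated fibroblasts, with a Pearson r of log2 CPM of 0.91 with Fmod and 0.962 with Prelp among 14931 genes. Comp stood at 5.01 CPM in wild type and 527 CPM in homozygous hearts at 8 weeks (6.67 ± 0.47), and at 11.9 CPM in shams, 11.7 CPM after I/R and 207 CPM after MI (4.09 ± 0.41 against sham). At 5 weeks wild type hearts held 2.31 to 4.02 CPM and homozygous hearts 3.71 to 10.5 CPM. These libraries overlapped, and Comp passed as higher (1.28 ± 0.27, edgeR adjusted p = 0.000818). The r is a description, and the libraries share their groups.

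**Figure D5:**
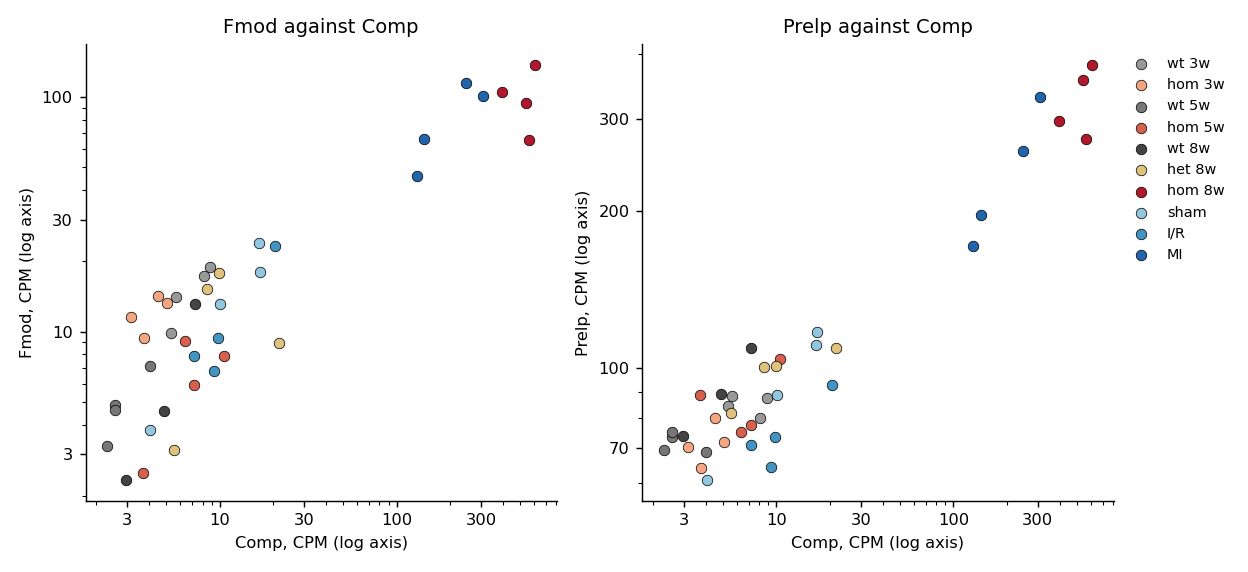
Fmod and Prelp against Comp in each library, in CPM on log axes, coloured by group. Homozygous 8-week and MI libraries form the upper right of both plots, with Comp at 129.7 CPM or more, and homozygous 5-week and I/R libraries lie among the controls.

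Among the other members, the gene most alike was Mgp (r = 0.974) for Dcn, and the 2 most alike were Serpinf1 (0.983) and Nupr1 (0.968) for Bgn, Dpysl3 (0.944) and Dpt (0.934) for Lum, Ecm2 (0.898) and Csgalnact2 (0.879) for Ogn, Naalad2 (0.91) and Gpc6 (0.907) for Aspn, and Tspan5 (0.826) and Actr1a (0.82) for Podn. Between members, r ran from 0.19 for Ogn with Podn to 0.90 for Dcn with Bgn.

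In wild type hearts levels moved with age as well. From 3 to 5 weeks Ogn (0.54 ± 0.09, adjusted p = 0.000354) and Aspn (0.48 ± 0.11, 0.00392) rose, and Bgn (-0.31 ± 0.09, 0.016), Lum (-0.31 ± 0.08, 0.00828), Podn (-0.64 ± 0.16, 0.00645) and Fmod (-1.59 ± 0.37, 0.00341) fell, 6 of 8 members where 31.7% of 13822 genes were called. In the fit of all libraries the calls of Bgn (adjusted p = 0.289), Lum (0.198) and Aspn (0.0998) ended. Fibromodulin stood at 9.85, 18.8, 14.1 and 17.3 CPM at 3 weeks and 3.27, 4.86, 7.13 and 4.62 CPM at 5 weeks, with no overlap. From 3 to 8 weeks Lum (-0.77 ± 0.09, adjusted p = 1.75e-05), Aspn (-0.54 ± 0.13, 0.00737) and Fmod (-1.13 ± 0.37, 0.0455) fell, 3 of 8 where 16.2% of genes were called. The Fmod call at 8 weeks ended without wild type replicate 2, 3 or 4 of 3 weeks or replicate 2 or 3 of 8 weeks (adjusted p 0.0616 to 0.185) and with DESeq2 (0.131), and that of Aspn without wild type replicate 2 of 8 weeks (0.0554). In the fit of all libraries neither passed (Fmod 0.171, Aspn 0.162). Whether the ages were prepared together is not given in the sources used here, and preparation and age cannot be told apart. Column names in the count file begin with kb at 3 and 8 weeks and with wt or pln at 5 weeks. What these names stand for is not stated.

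Among the enzymes that build the sulfated chains, of which 25 of 28 were tested at 5 and at 8 weeks, 11 rose and 3 fell in homozygous hearts at 5 weeks (median 0.23), and 12 rose and 1 fell at 8 weeks (median 0.38). Over all genes 43.7% were called in either direction at 5 weeks and 59.8% at 8 weeks, and 22.3% and 30.8% were called higher. The 13 of 25 called at 8 weeks were no larger a share than that in either direction. The 11 that rose at 5 weeks and the 12 at 8 weeks were larger shares than those of genes called higher. Dse, the epimerase that turns chondroitin into dermatan sulfate, rose by 1.15 ± 0.15 at 5 weeks and by 1.86 ± 0.12 at 8 weeks (7.11 to 26.2 CPM). The chain polymerizing factors Chpf (1.23 ± 0.10) and Chpf2 (1.65 ± 0.16) rose at 8 weeks, and Chpf after MI (0.80 ± 0.11). After I/R 12 of 23 rose and 1 fell (median 0.42), where 16.9% of all genes were called higher. Those that rose included the sulfotransferases Chst11 (1.24 ± 0.18) and Chst12 (1.02 ± 0.16), and Fam20b, a kinase of the linkage region, fell by 0.45.

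Ligands and receptors bound by these proteins were mostly higher in homozygous hearts and after I/R. Of 18, 14 rose and 2 fell at 5 weeks, 15 rose and 1 fell at 8 weeks, 14 rose and 1 fell after I/R and 8 rose after MI. The shares of all genes called higher were 22.3%, 30.8%, 16.9% and 6.62% in these comparisons. Tgfb2 rose by 1.81 ± 0.12 at 5 weeks, 1.04 ± 0.19 after I/R and 1.55 ± 0.19 after MI. Cd14, a coreceptor of the Toll-like receptors that sense biglycan, rose at 5 weeks (2.19 ± 0.13) and 8 weeks (2.42 ± 0.22), and the endothelial receptor Kdr fell by 2.02 at 8 weeks (323 to 81.1 CPM).

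Among proteases known to cut these proteins, 7 rose and 1 fell of 11 at 5 weeks, 10 rose and 3 fell of 14 at 8 weeks, 10 rose of 14 after I/R and 5 rose of 14 after MI. Mmp3 rose by 4.95 ± 0.38 (3.98 to 125 CPM) and Mmp2 by 2.58 ± 0.25 (92.5 to 565 CPM) at 8 weeks. Bmp1, which removes propeptides from biglycan and osteoglycin, rose after I/R (0.97 ± 0.10). Other proteoglycans were mixed, with 8 up and 4 down of 18 at 5 weeks and 10 up and 4 down of 18 at 8 weeks, where Prg4 (lubricin) rose by 4.44 ± 0.38 and Gpc1 fell by 0.75. For proteases and proteoglycans alike these counts stand beside 43.7% of all genes called at 5 weeks and 59.8% at 8 weeks in either direction. Genes called higher made up 22.3% at 5 weeks, 30.8% at 8 weeks, 16.9% after I/R and 6.62% after MI.

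Markers of cell types changed too, some lists up and others down, and their part in the results was not tested. Over all genes 22.3% were called higher at 5 weeks, 30.8% at 8 weeks, 16.9% after I/R and 6.62% after MI. In either direction 43.7% were called at 5 weeks and 59.8% at 8 weeks. Fibroblast markers rose for 9 of 14 and fell for 1 at 5 weeks, with summed levels of 1869 to 2689 CPM in homozygous and 1940 to 2141 CPM in wild type hearts. At 8 weeks 11 of 14 rose, with sums of 5227 to 9036 against 1918 to 2372 CPM. After I/R 7 rose and 2 fell (1755 to 1950 against 1859 to 2364 CPM in shams), and after MI 8 rose and 1 fell (2522 to 3129 CPM). Gsn held 62.9% of the counts of this list. Without it, a choice made after its share was seen, the sums were 1008 to 1269 CPM in homozygous against 728 to 758 CPM in wild type hearts at 5 weeks, and 2358 to 2838 against 678 to 688 CPM at 8 weeks. They were 677 to 812 CPM after I/R and 846 to 1162 CPM after MI, against 572 to 679 CPM in shams. The sum without Gsn was thus apart from its controls at 5 weeks, at 8 weeks and after MI, and overlapped slightly after I/R.

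Activated fibroblast markers rose for 10 of 11 at 5 weeks (1 fell), 9 of 11 at 8 weeks and 7 of 11 after each injury. Tnc (tenascin C) stood at 188 CPM after I/R and 7.24 CPM after MI, and Comp at 11.7 and 207 CPM. Macrophage markers rose for 9 of 10 at 5 weeks (1 fell), 10 of 10 at 8 weeks, 9 of 10 after I/R and 3 of 10 after MI. Their sums were 1911 to 2430 CPM in homozygous 5-week hearts against 489 to 531, and 551 to 759 CPM after MI against 345 to 564 in shams. Cardiomyocyte markers fell for 8 of 10 at 5 and at 8 weeks, 9 of 10 after I/R and 2 of 10 after MI. Over all genes, 2852 of 13323 were called lower at 5 weeks and 4149 of 14314 at 8 weeks. After I/R 1921 of 13611 were called lower, and after MI 649 of 13611. Endothelial markers fell for 10 of 10 at 5 weeks, and 3 rose and 5 fell at 8 weeks; smooth muscle and pericyte markers fell for 8 of 9 at 5 weeks, and 1 rose and 5 fell at 8 weeks.

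Markers of tissues at the heart's base and surface, which also make such proteins, are given beside Fmod and Prelp; their part was not tested. Of the valve, tendon and cartilage list, which shares Comp with the activated fibroblast list, 3 of 4 tested rose and 1 fell at 5 weeks, 4 of 6 tested rose at 8 weeks, with a sum of 442 to 668 CPM against 19.4 to 32.2, and 2 of 6 after MI (160 to 354 against 25.3 to 49.7 CPM), where 1 fell. Comp made up most of these sums. Cytl1, also of this list, fell by 1.02 at 5 weeks and by 1.42 after I/R, rose at 8 weeks (1.59 ± 0.27, 11.1 to 34.2 CPM), and stood at 15.6 CPM after MI and 13.9 CPM in shams. Tnmd, another gene of the list, was low but higher after MI, at 3.483 to 5.535 CPM against 0 to 0.9445 CPM in shams. Cnmd went the other way, at 0.3666 to 0.9799 CPM after MI against 1.739 to 3.479 CPM in shams. Of the mesothelial list 5 of 6 rose at 8 weeks (18.5 to 26.8 against 5.23 to 8.51 CPM) and 0 of 7 passed after MI. Of the atrial list Dkk3 was the gene that passed, at 5 weeks (0.54 ± 0.15), at 8 weeks (2.98 ± 0.40) and after MI (2.03 ± 0.48). Bmp10 was at 0 counts in every library but MI replicate 2, which held 109. After MI the 3 adipocyte markers tested rose, with Adipoq at 7.81 CPM against 0.386 CPM in shams.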

How the data were processed

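The 39 libraries came from Trizol RNA with a stranded mRNA kit, per the labels' protocols. The submitters' processing notes name mm10, STAR 2.7.3a and featureCounts of Subread 2.0.0, and the deposited values are the authors' whole-number counts per gene. Neither annotation release nor strand setting is given in the sources used here. GENCODE vM21 named 36345 of 38293 genes, and unnamed ones held 0.133% of counts. Models were fitted per set (3 weeks, 5 weeks, 8 weeks, surgery, wild type ages), with differences of effects in 1 fit of all libraries. They used edgeR 4.0.16 in R 4.3.3 with TMM, filterByExpr, the two-sided quasi-likelihood test and Benjamini-Hochberg adjustment over all genes tested at 0.05, and every p in the text is from this model unless DESeq2 (1.42.0) is named. SE is the absolute log2 fold change over the square root of F. The scripts were tested on simulated data.

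Members and gene lists were chosen with earlier results of these data known. All members are named; from each list up to 3 passing genes of smallest p per comparison and 1 that moved the other way, and for each member the 2 genes of highest r, of which 1 is not reported here. Cytl1 and Comp values in further groups fall outside this rule and were chosen after their values were seen. The Tnmd and Cnmd values were also chosen after they were seen. Alternatives were DESeq2, RLE and library size scaling, no filter, a replicate block, all libraries, age-matched shams and each library left out.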

Additional observations from a re-analysis of the deposited data

Results flagged for a closer look

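In 2 of 72 groups examined, 1 library lay far from the rest by Dixon's ratio, and chance alone gives about 1 in 20. Dcn in wild type replicate 3 of 3 weeks stood at 519.7 CPM, with 485.8 to 490.1 CPM in the other 3 libraries. Fmod in I/R replicate 3 stood at 23.11 CPM, with 6.766 to 9.382 CPM in the others.

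Of 32 differences between effects tested for the members, 25 passed edgeR's adjusted threshold in a fit of all libraries. The change in the homozygous effect from 3 to 5 weeks passed for Dcn (0.61), Bgn (1.77), Lum (1.23) and Aspn (0.84). The change from 5 to 8 weeks passed for Dcn (1.61), Bgn (1.39), Lum (0.83), Fmod (3.51), Ogn (0.92), Prelp (1.58), Aspn (1.28) and Podn (0.85). The homozygous effect at 8 weeks exceeded that of MI for Dcn (1.65), Bgn (1.22), Lum (1.54), Ogn (0.62) and Podn (0.84). It exceeded that of I/R for Dcn (2.35), Bgn (1.74), Lum (1.80), Fmod (4.21), Ogn (1.12), Prelp (2.17), Aspn (1.17) and Podn (1.15).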

How the results depend on the processing

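Of 1760 values for members under an alternative, 1668 kept their direction and side of the threshold, 47 lost the call, 20 gained it, 25 moved without a call and 0 of those called reversed. At 3 weeks the genes called were 0 with edgeR, 118 with DESeq2, 25 with no filter, 40 in the fit of all libraries, and 0 to 4 with each library left out. After I/R, age-matched shams gave 2136 genes and 1 member, and 1 to 3 members were called with each library left out. After MI, age-matched shams gave 941 genes, and 663 (without MI replicate 2) to 1570 (without MI replicate 4) were called with 1 library out. In the fit of all libraries, wild type ageing from 3 to 5 weeks gave 3 members, and from 3 to 8 weeks 1254 genes and 1 member; leaving out each library gave 1350 to 2162 genes and 1 to 4 members for the latter. From 3 to 5 weeks the homozygous effect grew for 2 to 4 members with 1 library out. Library size scaling turned Htra1 at 5 weeks (0.02, called lower at -0.18 with TMM). It moved the median of all genes by 0.21 at 5 weeks, 0.19 at 8 weeks, 0.21 after I/R and 0.11 after MI, and turned the genes called higher and lower from 2969 and 2852 to 5388 and 1411 at 5 weeks, from 4404 and 4149 to 5403 and 3086 at 8 weeks, from 4576 and 4288 to 5970 and 2934 against heterozygous hearts, from 2301 and 1921 to 4189 and 431 after I/R, from 901 and 649 to 1406 and 317 after MI, and from 1203 and 1527 to 569 and 2356 between MI and I/R. For differences of effects it turned them from 1655 and 1387 to 2672 and 579 (3 to 5 weeks), from 2152 and 2066 to 1639 and 2545 (5 to 8 weeks), and from 2485 and 2567 to 1872 and 3128 (homozygous against I/R). The cause of these changes was not tested. Shared replicate numbers did not pair the samples (13 of 44 correlated best with their own number); the replicate block gave 5901 genes at 5 weeks, 8170 at 8 weeks, 3529 after I/R and 1165 after MI, with Podn passing at 5 weeks (0.28, adjusted p = 0.0337), Aspn between MI and I/R (0.61, 0.047), and Podn no longer between the homozygous and MI effects (0.72, 0.0798). Fmod rests on few counts in controls, which limits its fold.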
